A study of Homo sapiens with 18 samples.

Results

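Addition of BGT226 to STA9090 was followed in NCI-H295R cells, a steroid-producing line from a human adrenocortical carcinoma, by setting the 3 libraries of cells given STA9090+BGT226 against the 3 libraries of cells given STA9090 alone. Every gene that passed a filter on low counts was compared, which was 15787 of the 58870 genes listed. Both groups carried STA9090, an inhibitor of the chaperone HSP90 also called ganetespib, and BGT226, an inhibitor of PI3K and mTOR, was the only stated difference between them. All cells were collected after 48 h, the stated dose was 20 nM, and the labels say neither how much of each agent a combination held nor which vehicle the untreated cells received. The 6 libraries belong to a series of 18 total RNA libraries, 3 biological replicates of each of 6 groups, which also holds STA9090+PIK75, PIK75, BGT226 and untreated cells. A single cell line was used, so the replicates describe the spread within that line.

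PI3K turns signals from the insulin and IGF receptors into AKT and mTOR activity. AKT holds FOXO transcription factors out of the nucleus, and mTOR complex 1 drives ribosome production, sterol and fatty acid synthesis through SREBP factors, and amino acid supply through ATF4. HSP90 folds and stabilises many kinases, AKT among them, and its inhibition is known to release the heat shock factor HSF1. Adrenocortical carcinomas commonly overproduce IGF2, and NCI-H295R cells also carry an activated WNT pathway and retain the enzymes of cortisol and androgen synthesis.

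Counts assigned to genes totalled 12600900 to 16096500 per STA9090+BGT226 library and 12615700 to 15227500 per STA9090 library. RN7SK, RPPH1, RN7SL1 and RN7SL2, all made by RNA polymerase III, held 35.8% to 38.4% of counts in the STA9090+BGT226 libraries and 31.4% to 38.2% in the STA9090 libraries. STA9090 replicate 1 had the lowest such share and lay apart from its group on the third principal component, at 24.3 against 8.53 and 6.51 for the other two. Levels are in CPM, counts of a gene scaled to the size of its library. NR5A1, the master regulator of adrenal steroidogenesis and a marker of the labelled cell type, had 521, 504 and 489 CPM in the STA9090+BGT226 libraries, against 442, 567 and 639 CPM in the STA9090 libraries. Without STA9090 replicate 1, the comparison called 2804 genes higher and 3119 lower. Of 20 markers of other cell types, 17 failed the filter, and none of the 3 that were tested (KRT18, EPCAM and CD14) passed edgeR's test, with 0 at an unadjusted p under 0.05 and 0 called by DESeq2. Their summed level was 3.72 to 4.98 CPM in the STA9090+BGT226 libraries and 2.72 to 3.30 CPM in the STA9090 libraries, and PTPRC, CD3E, VWF, CDH5, COL1A2, TH and DBH had no count in any of the 6. In such bulk samples, fewer cells of a kind and less RNA per cell cannot be told apart.

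Adding BGT226 to STA9090 changed 6378 genes (40.4%) at an adjusted p under 0.05 by edgeR's quasi-likelihood test. Of the genes tested, 3078 (19.5%) were higher and 3300 (20.9%) were lower in STA9090+BGT226 cells. The median log2 fold change of all genes was 0.026, so changes are read against a centre near 0. At least 2-fold changes were more often upward, with 659 genes higher and 315 genes lower by that margin. All 3 STA9090+BGT226 libraries lay above all 3 STA9090 libraries in 24.5% of genes and below them in 23.5%. Each change of a gene is given as a log2 fold change with its SE, and each count of a gene list is read against the 19.5% higher and 20.9% lower of all genes tested.

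**Figure D1:**
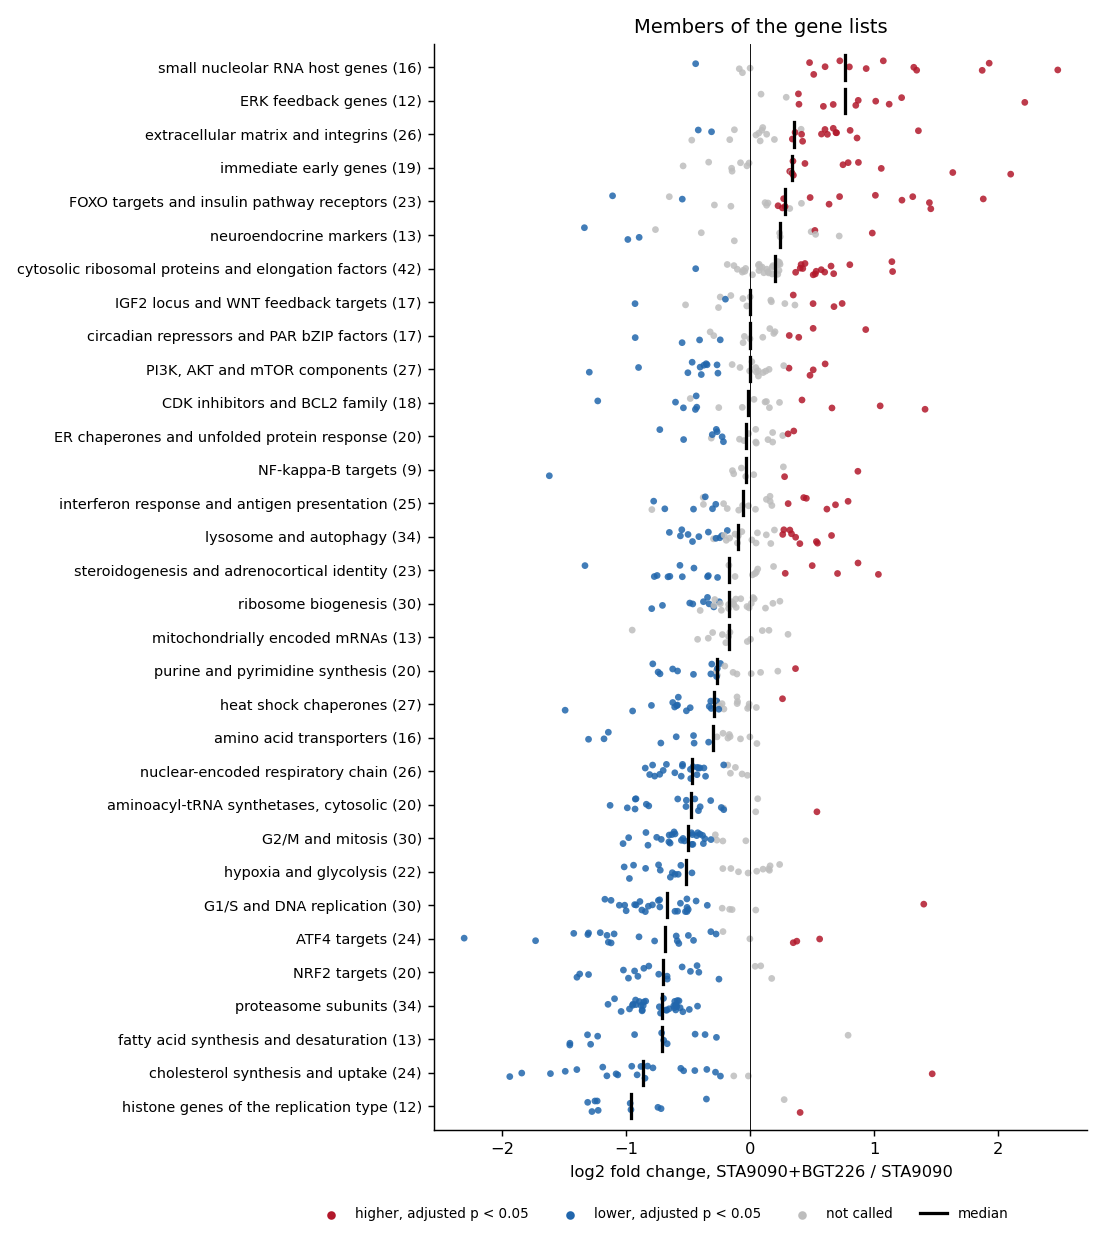
Log2 fold change (STA9090+BGT226 over STA9090, x axis) of every tested member of 32 gene lists with at least 9 tested members; each dot is a gene, red higher and blue lower at adjusted p under 0.05, grey not called, and the black bar is the list median, with the number of tested members in brackets. Medians ran from 0.76 for small nucleolar RNA host genes to -0.96 for replication-type histone genes, and all 34 proteasome genes were called lower.

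IGF2 and the insulin receptor rose. IGF2, the growth factor that signals through IGF1R and INSR, had 6579, 6596 and 6477 CPM with BGT226 added, against 3701, 3990.0 and 4059.7 CPM with STA9090 alone. Its lowest STA9090+BGT226 library lay above its highest STA9090 library, and its log2 fold change was 0.74 ± 0.091 (SE, adjusted p = 2.2e-06). The exons of IGF2 overlap those of AC132217.1 and of another entry named IGF2 on the same strand, so the split of reads among them is uncertain. INSR, the insulin receptor, had 145, 137 and 132 CPM in the STA9090+BGT226 libraries, against 83.4, 85.1 and 81.95 CPM in the STA9090 libraries, a log2 fold change of 0.72 ± 0.064 (adjusted p = 4.0e-08). IGF1R and IRS2, the IGF receptor and an adaptor of both receptors, had smaller log2 fold changes of 0.26 (adjusted p = 0.0095) and 0.23 (adjusted p = 0.048). The IGF1R call was lost without STA9090 replicate 3 (adjusted p = 0.056), with no filter on low counts (adjusted p = 0.0529) and in a fit of the compared groups alone (adjusted p = 0.0591). The IRS2 call was lost without STA9090 replicate 1 (adjusted p = 0.257), without any of the 3 STA9090+BGT226 libraries, with DESeq2's size factors (adjusted p = 0.0625), with no filter (adjusted p = 0.192) and in the fit of the compared groups (adjusted p = 0.162).

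Of 23 tested members of the list of FOXO targets and insulin pathway receptors, 13 were higher and 2 were lower, with a median log2 fold change of 0.28. TXNIP, which restrains glucose uptake and binds thioredoxin, had 158, 143 and 143 CPM with BGT226 added, against 38.96, 42.7 and 38.9 CPM with STA9090 alone, with a log2 fold change of 1.88 ± 0.084 and an adjusted p of 3.8e-12. FOXO1 itself, a gene that FOXO factors activate, had 44.6, 44.2 and 45.1 CPM in the STA9090+BGT226 libraries, against 16.5, 16.8 and 15.8 CPM in the STA9090 libraries. In both genes the lowest library with BGT226 stood far above the highest library without it. For TXNIP, the rule for naming the largest rises required groups that did not overlap. FOXO1 had a log2 fold change of 1.44 ± 0.078 (adjusted p = 5.7e-11). FOXO3 rose, with a log2 fold change of 1.22 ± 0.094 (adjusted p = 7.5e-09), and the FOXO targets KLHL24 and CREBRF rose, with log2 fold changes of 1.01 and 1.46. The 2 members that fell, named after their values were seen, were the sestrins SESN3 (log2 fold change -1.11) and SESN1 (log2 fold change -0.55), which inhibit mTOR complex 1 under stress. The FOXO word GTAAACA was found on either strand in 2 of 20 matched promoters of the list, against 4.19% of all genes, and no match says only that those letters are not in the window searched.

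Genes that encode the kinases and regulators of the pathway split, with 4 of 27 tested higher, 11 lower and a median of -0.0036. Those higher included PHLPP1 and, named after their values were seen, PIK3R2 and RPTOR, a PI3K subunit and the scaffold of mTOR complex 1, with log2 fold changes of 0.60 and 0.31. EIF4EBP1, the translation repressor that mTOR inactivates, had 13.7, 11.8 and 12.5 CPM with BGT226 added, against 27.2, 31.3 and 34.96 CPM with STA9090 alone. The groups did not overlap, and the log2 fold change was -1.30 ± 0.11 (adjusted p = 2.2e-08). PIK3R3, a regulatory subunit of PI3K, fell, with a log2 fold change of -0.90 ± 0.09, while PHLPP1, a phosphatase that removes an activating phosphate from AKT, rose, with a log2 fold change of 0.48 ± 0.076. MTOR had a log2 fold change of -0.26 ± 0.069 (adjusted p = 0.0053). PIK3CA, the catalytic subunit p110 alpha, had 10.1, 12.5 and 12.5 CPM in the STA9090+BGT226 libraries, against 12.1, 11.1 and 10.9 CPM in the STA9090 libraries, overlapping values that gave an adjusted p of 0.77.

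Feedback genes of the ERK pathway rose together, with 10 of 12 tested members higher, none lower and a median of 0.76. SPRY4, an inhibitor of receptor tyrosine kinase signalling that ERK induces, had 24.8, 21.7 and 19.4 CPM with BGT226 added, against 4.31, 5.30 and 4.57 CPM with STA9090 alone. Every STA9090+BGT226 library was above every STA9090 library, which the rule for naming the largest rises required. The log2 fold change was 2.21 ± 0.13 (adjusted p = 1.6e-10). DUSP4 and DUSP5, phosphatases of ERK and related kinases, rose, with log2 fold changes of 1.12 ± 0.13 and 1.01 ± 0.092, and the ETS factors ETV4 and ETV5, ERK-induced transcription factors, with 1.22 ± 0.11 and 0.87 ± 0.079. Immediate early genes followed, with 11 of 19 higher, 0 lower and a median of 0.34. EGR1, a growth-factor-induced zinc finger factor, had 42.98, 50.03 and 37.1 CPM in the STA9090+BGT226 libraries, against 11.99, 15.3 and 14.8 CPM in the STA9090 libraries, which is a log2 fold change of 1.63 ± 0.13 (adjusted p = 8.5e-09). FOSL2, a component of AP-1, rose, with a log2 fold change of 1.06 ± 0.068. EGR2, a relative of EGR1, had 1.99, 1.89 and 2.01 CPM with BGT226 added, against 0.254, 0.691 and 0.439 CPM with STA9090 alone, a low level with a log2 fold change of 2.10 ± 0.37.

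Most host genes of small nucleolar RNAs rose, as did 15 of 42 genes of ribosomal proteins and elongation factors. Many transcripts of both kinds begin with a run of pyrimidines, a feature through which mTOR is known to control translation. Of 16 small nucleolar RNA host genes, whose introns carry guide RNAs for ribosomal RNA modification, 12 were higher and 1 was lower, with a median of 0.76. C6orf48, now called SNHG32, at chr6:31834608-31839766 (GRCh38), had 67.1, 81.6 and 70.9 CPM in the STA9090+BGT226 libraries, against 11.3, 13.7 and 14.7 CPM in the STA9090 libraries. Its log2 fold change was 2.48 ± 0.092 (adjusted p = 4.2e-13), the largest of the 15 protein-coding genes named for the size of their rise. Its exons overlap those of a transcript on the same strand, AL671762.1, which was not called (log2 fold change -0.25), so the split of reads between them is uncertain. ZFAS1, another host gene, had 59.01, 62.6 and 57.8 CPM with BGT226 added, against 15.04, 17.5 and 14.6 CPM with STA9090 alone, again with no overlap between groups and a log2 fold change of 1.93 ± 0.097. GAS5, a host gene also studied as a growth-arrest transcript, had 149, 154 and 143 CPM in the STA9090+BGT226 libraries, against 51.3, 66.4 and 61.6 CPM in the STA9090 libraries, a log2 fold change of 1.32 ± 0.09. SNHG5 rose, with a log2 fold change of 1.07 ± 0.091, and the member that fell, singled out after its value was seen, was SNHG17 (log2 fold change -0.44).

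The starts of these genes are shown because a C followed by a run of pyrimidines at the first base of the transcript defines the 5′ terminal oligopyrimidine class. Each line gives 10 bases before and 20 bases from the RefSeq start (GRCh38.p14), with the C and its pyrimidine run in capitals.
C6orf48 (chr6:31834906-31834935, plus strand): cattttagttCTTTTTgcgaagtgggctcg
ZFAS1 (chr20:49278632-49278661, plus strand): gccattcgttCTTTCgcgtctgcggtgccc
SNHG5 (chr6:85678714-85678743, minus strand): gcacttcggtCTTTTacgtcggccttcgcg
EEF2 (chr19:3985444-3985473, minus strand): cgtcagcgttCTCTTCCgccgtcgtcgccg
EIF4B (chr12:53006446-53006475, plus strand): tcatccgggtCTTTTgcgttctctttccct
RPS9 (chr19:54200848-54200877, plus strand): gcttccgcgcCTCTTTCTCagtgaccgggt

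A match of this kind is a description of the annotated start and no measure of translation. Such a start, counted as a C with at least 5 pyrimidines in the run, was present in 5 of 14 matched snoRNA host genes and in 25 of 33 matched members of the list of ribosomal proteins and elongation factors, against 5.14% of the 27305 genes in the RefSeq table. Of the genes called higher, lower and not called, 9.49%, 6.10% and 6.96% of those matched had it. The windows shown were picked from members that both rose and had such a start, so they do not link the start to the rise. GAS5, EPB41L4A-AS1 and RPL4 lacked it and rose, with log2 fold changes of 1.32, 1.87 and 0.60. SNHG17 lacked it and fell, and SNHG12 and TAF1D had it and were not called. Among the 42 ribosomal protein and elongation factor genes, 15 were higher, 1 was lower and the median was 0.20. EEF2, which moves the ribosome along the message, had 3966, 3447 and 3734 CPM with BGT226 added, against 1501, 1619.9 and 1908 CPM with STA9090 alone, and its log2 fold change was 1.15 ± 0.11 (adjusted p = 8.8e-08). EIF4B, a cofactor of the helicase that opens message leaders, had 879, 850.1 and 838 CPM in the STA9090+BGT226 libraries, against 377, 379 and 407 CPM in the STA9090 libraries, a log2 fold change of 1.14 ± 0.085 (adjusted p = 4.1e-09). RPS9 and RPL4, proteins of the small and large subunit, rose, with log2 fold changes of 0.80 ± 0.12 and 0.60 ± 0.086. The 1 member that fell was RPS27A (log2 fold change -0.44), which was picked out after its value was seen. Ribosomal protein genes have many processed copies in the genome, so their counts depend on how reads were shared among copies.

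Cholesterol synthesis fell almost throughout. Of 24 tested genes of cholesterol synthesis and uptake, 21 were lower, 1 was higher and the median log2 fold change was -0.86. ACAT2, which makes acetoacetyl-CoA at the head of the pathway, had 28.5, 25.8 and 28.02 CPM with BGT226 added, against 105, 107 and 103 CPM with STA9090 alone. The groups were far apart, and the rule for naming the largest falls required that they not overlap. The log2 fold change was -1.94 ± 0.082 (adjusted p = 2.6e-12). ACAT2 overlaps TCP1 on the opposite strand, and TCP1 also fell (log2 fold change -0.68), so reads of the pair can be confused if strand was not used in counting. The same holds for ZFAS1, ETV4, BCL2L11, SREBF1, COL18A1, TUBA1A, NEFM and NR1D1, among others, whose partners on the opposite strand had counts near or above theirs. FDPS, which makes farnesyl diphosphate, had 92.03, 80.4 and 94.1 CPM in the STA9090+BGT226 libraries, against 322, 288 and 345 CPM in the STA9090 libraries, a log2 fold change of -1.84 ± 0.082 (adjusted p = 3.8e-12). EBP and LSS, a sterol isomerase and lanosterol synthase, fell, with log2 fold changes of -1.61 ± 0.093 and -1.49 ± 0.097. SREBF2, the transcription factor of the pathway, had 190.2, 172 and 181 CPM with BGT226 added, against 174, 185 and 189 CPM with STA9090 alone and was not called (adjusted p = 0.90). TM7SF2, a sterol reductase and the only member higher, was named after its value was seen and had a log2 fold change of 1.47. The sterol regulatory word TCACNCCAC was found on either strand in 1 of 18 matched promoters of this list, against 1.39% of all genes in the RefSeq table of windows from 250 bases before to 50 bases after each start. No match says only that those letters are not in that window.

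Fatty acid synthesis fell alongside, with 12 of 13 tested genes lower, none higher and a median of -0.71. SCD, the stearoyl-CoA desaturase, had 433, 406 and 472 CPM in the STA9090+BGT226 libraries, against 1226, 1219.8 and 1139 CPM in the STA9090 libraries, and ACLY, which supplies cytosolic acetyl-CoA, had 136, 115 and 132 CPM with BGT226 added, against 316, 356 and 376 CPM with STA9090 alone. In both genes all 3 libraries with BGT226 were below all 3 without it, and the log2 fold changes were -1.45 ± 0.094 (adjusted p = 8.9e-10) for SCD and -1.45 ± 0.093 (adjusted p = 8.1e-10) for ACLY. ACSS2, FADS2 and ME1, enzymes that supply acetyl-CoA, desaturate fatty acids and make NADPH, fell, with log2 fold changes of -1.28 ± 0.091, -1.23 ± 0.10 and -0.93 ± 0.073. SREBF1, which drives this group, had 50.8, 45.9 and 53.4 CPM in the STA9090+BGT226 libraries, against 73.9, 83.7 and 88.9 CPM in the STA9090 libraries, a log2 fold change of -0.71 ± 0.096 (adjusted p = 6.9e-06).

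Genes activated by ATF4, the factor that raises amino acid synthesis and import, fell in 19 of 24 tested members, with 3 higher and a median of -0.68. ASNS, asparagine synthetase, had 12.1, 7.70 and 8.87 CPM with BGT226 added, against 26.7, 33.3 and 34.96 CPM with STA9090 alone, a log2 fold change of -1.73 ± 0.14 (adjusted p = 1.1e-08). CHAC1, which degrades glutathione, had 1.67, 1.74 and 1.60 CPM in the STA9090+BGT226 libraries, against 7.61, 8.60 and 8.61 CPM in the STA9090 libraries, and PSAT1, of serine synthesis, had 26.3, 27.4 and 26.9 CPM with BGT226 added, against 74.2, 71.5 and 70.01 CPM with STA9090 alone. None of the 3 genes overlapped between groups, which the rule for naming the largest falls required of ASNS. The log2 fold changes of CHAC1 and PSAT1 were -2.30 ± 0.18 and -1.42 ± 0.093. PHGDH and MTHFD2, of serine synthesis and mitochondrial folate metabolism, fell, with log2 fold changes of -1.21 ± 0.11 and -1.15 ± 0.11. The 3 members that rose, named after their values were seen, were the transcription factors ATF4 (log2 fold change 0.35), CEBPB (log2 fold change 0.38) and DDIT3 (log2 fold change 0.56).

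Cytosolic aminoacyl-tRNA synthetases, which charge transfer RNAs and include known ATF4 targets, were lower in 16 of 20, with 1 higher and a median of -0.48. GARS had 34.8, 37.1 and 32.9 CPM in the STA9090+BGT226 libraries, against 72.4, 76.4 and 80.2 CPM in the STA9090 libraries, a log2 fold change of -1.13 ± 0.082 (adjusted p = 2.9e-09), and MARS, YARS, WARS and IARS fell, with log2 fold changes of -0.99, -0.93, -0.92 and -0.82. The member that rose, QARS (log2 fold change 0.54), was picked out after its value was seen. Amino acid transporters were lower in 8 of 16, with none higher and a median of -0.30. SLC6A9, a glycine transporter, had 25.4, 24.7 and 26.01 CPM with BGT226 added, against 57.2, 58.2 and 56.9 CPM with STA9090 alone, a log2 fold change of -1.18 ± 0.06. SLC7A11, the cystine importer, and SLC7A5, a transporter of large neutral amino acids, fell, with log2 fold changes of -1.30 ± 0.14 and -1.14 ± 0.12.

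The composite element bound by ATF4 with a C/EBP partner was searched as TGATGNAA on both strands, from 250 bases before to 50 bases after each start. It was found in 4 of 18 matched ATF4 target genes, 7 of 16 synthetase genes and 5 of 14 transporter genes, against 4.46% of all genes in the RefSeq table. A match is a description, not a bound site. The windows of ASNS and CHAC1, the 2 members with the lowest log2 fold changes, are shown with the match in capitals, which lies 68 bases before the start in ASNS and 209 bases before it, on the opposite strand, in CHAC1.
ASNS (chr7:97872453-97872492, minus strand): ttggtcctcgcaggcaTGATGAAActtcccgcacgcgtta
CHAC1 (chr15:40953246-40953285, plus strand): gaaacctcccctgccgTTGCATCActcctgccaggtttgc

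All 34 tested proteasome genes were lower with BGT226 added, and the median log2 fold change was -0.71. PSMD11, a subunit of the regulatory particle, had 67.7, 63.99 and 69.2 CPM in the STA9090+BGT226 libraries, against 127, 140.3 and 146 CPM in the STA9090 libraries. PSMB2, of the catalytic core, had 64.2, 61.8 and 67.9 CPM with BGT226 added, against 121, 128 and 132 CPM with STA9090 alone. Both genes separated the groups, with log2 fold changes of -1.04 ± 0.085 (adjusted p = 1.4e-08) and -0.97 ± 0.07 (adjusted p = 2.8e-09). PSMB7, PSMD2 and PSMC4 fell, with log2 fold changes of -0.95, -0.89 and -0.87, and the smallest fall in the list was that of PSMD4 (log2 fold change -0.42).

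Antioxidant genes that NRF2 activates were lower in 17 of 20, with none higher and a median of -0.70. NQO1, a quinone reductase, had 21.6, 22.6 and 24.8 CPM in the STA9090+BGT226 libraries, against 55.7, 64.2 and 59.4 CPM in the STA9090 libraries, a log2 fold change of -1.37 ± 0.093 (adjusted p = 1.1e-09). TXN, thioredoxin, had 18.98, 27.01 and 23.2 CPM with BGT226 added, against 62.9, 65.2 and 53.9 CPM with STA9090 alone, a log2 fold change of -1.40 ± 0.11. The peroxiredoxin PRDX1 fell, with a log2 fold change of -0.98 ± 0.11, and SLC7A11 is counted in this list, the ATF4 list and the transporter list. SLC7A5, SLC3A2, SLC7A1 and SLC38A2 are counted in both the ATF4 and the transporter list, and ME1 here and in the fatty acid list, so the counts of these lists share genes.

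Heat shock chaperones, whose induction follows HSP90 inhibition through HSF1, were lower in 15 of 27 and higher in 1 when BGT226 was added, with a median of -0.29. BGT226 without STA9090 called 12 of the 27 lower and 0 higher, with a median of -0.23, so the fall was not particular to cells given STA9090. The 1 that rose, named after its value was seen, was the cochaperone DNAJB6 (log2 fold change 0.26). HSPA8, the constitutive HSP70, had 689.7, 659.5 and 674 CPM in the STA9090+BGT226 libraries, against 939, 1031 and 1049 CPM in the STA9090 libraries, a log2 fold change of -0.58 ± 0.085 (adjusted p = 1.9e-05). STIP1 and FKBP4, cochaperones of HSP90, fell, with log2 fold changes of -0.79 ± 0.088 and -0.61 ± 0.09, and HSPB8, a small heat shock protein, with -0.95 ± 0.14. HSP90AA1, the inducible HSP90 gene, had 212, 250.1 and 228 CPM with BGT226 added, against 326, 240.4 and 263 CPM with STA9090 alone. Its groups overlapped, the fall of -0.27 ± 0.099 had an adjusted p of 0.035, and the call was lost without STA9090 replicate 1 (log2 fold change -0.14, adjusted p = 0.238), without STA9090+BGT226 replicate 1 (adjusted p = 0.144), without replicate 3 of that group (adjusted p = 0.084) and in the fit of the compared groups alone (adjusted p = 0.0895). HSP90AB1, the constitutive gene, had 711, 657 and 682 CPM in the STA9090+BGT226 libraries, against 679, 643 and 756 CPM in the STA9090 libraries, and HSPA1A, the stress-induced HSP70, had 54.7, 43.5 and 45.9 CPM with BGT226 added, against 43.02, 43.6 and 58.9 CPM with STA9090 alone. Neither was called, with adjusted p of 0.88 and 0.95. HSPA1A has a near-identical neighbour, HSPA1B, so their counts are uncertain.

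Chaperones and factors of the endoplasmic reticulum stress response were higher in 2 of 20 and lower in 7, with a median of -0.031. HERPUD1, of the degradation complex, had 75.6, 69.6 and 75.6 CPM in the STA9090+BGT226 libraries, against 103, 112 and 105 CPM in the STA9090 libraries, a log2 fold change of -0.54 ± 0.062. CREB3L2, a membrane-bound transcription factor, rose, with a log2 fold change of 0.31 ± 0.089, a call lost without STA9090 replicate 3 (adjusted p = 0.066), and DNAJB9, a cochaperone named after its value was seen, rose, with a log2 fold change of 0.35. The counts moved with single libraries, to 4 higher and 5 lower without STA9090 replicate 1, 0 higher and 7 lower without STA9090 replicate 3, and 1 higher and 5 lower without STA9090+BGT226 replicate 1.

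Cell cycle genes fell in both lists. Of 30 genes of G2/M and mitosis, 26 were lower and none higher, with a median of -0.50. CDC20, the activator of the anaphase-promoting complex, had 55.3, 45.4 and 50.5 CPM with BGT226 added, against 96.6, 98.02 and 113 CPM with STA9090 alone, a log2 fold change of -1.02 ± 0.087 (adjusted p = 2.3e-08). PLK1, a mitotic kinase, had 67.5, 60.2 and 65.5 CPM in the STA9090+BGT226 libraries, against 100.1, 105 and 113 CPM in the STA9090 libraries, a log2 fold change of -0.72 ± 0.07. UBE2C, BIRC5 and TPX2, of mitotic ubiquitination, chromosome segregation and spindle assembly, fell, with log2 fold changes of -0.98, -0.84 and -0.65. Of 30 genes of G1/S and DNA replication, 25 were lower and 1 was higher, with a median of -0.67. CDC25A, the phosphatase that activates CDK2, had 31.5, 29.8 and 37.9 CPM with BGT226 added, against 72.1, 78.3 and 73.6 CPM with STA9090 alone, and PCNA, the sliding clamp, had 36.6, 34.6 and 38.8 CPM in the STA9090+BGT226 libraries, against 69.99, 65.99 and 61.5 CPM in the STA9090 libraries. Neither gene overlapped between groups, and the log2 fold changes were -1.17 ± 0.091 and -0.84 ± 0.078. RRM2, TYMS and CCND3, of deoxynucleotide supply and G1 progression, fell, with log2 fold changes of -1.12, -0.92 and -1.05.

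CCND1, cyclin D1, was the 1 member of that list that rose, at 0.718, 1.21 and 0.887 CPM with BGT226 added, against 0.254, 0.538 and 0.264 CPM with STA9090 alone. The level was low in every library, and the gene overlaps LTO1 on the opposite strand, which also rose (log2 fold change 0.74). Its log2 fold change of 1.40 ± 0.43 had an adjusted p of 0.014, and the call was lost with DESeq2 (adjusted p = 0.0574), without STA9090 replicate 1 (adjusted p = 0.067) or with STA9090+BGT226 replicate 2 removed (adjusted p = 0.060). CDKN1A, the CDK inhibitor p21, had 28.7, 29.7 and 33.9 CPM in the STA9090+BGT226 libraries, against 99.9, 88.5 and 100.5 CPM in the STA9090 libraries, a log2 fold change of -1.64 ± 0.083 (adjusted p = 2.4e-11). CDKN2D and CDKN2C, inhibitors of CDK4 and CDK6, fell, with log2 fold changes of -1.23 ± 0.19 and -0.60 ± 0.07. The pro-apoptotic BH3-only genes BCL2L11, BMF and HRK rose, with log2 fold changes of 0.66 ± 0.12, 1.05 ± 0.23 and 1.41 ± 0.22. Another that rose, named after its value was seen, was the survival gene BCL2L2 (log2 fold change 0.42). In the list of CDK inhibitors and BCL2 family genes, 4 of 18 tested members (22.2%) were higher and 6 (33.3%) lower, with a median of -0.016. The share higher was near the 19.5% of all genes tested, so these rises are not a result about the list. CDKN1A is not a member of that list and was named for the size of its fall.

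Promoters of the 2 cell cycle lists were searched for the cell cycle homology region, TTTGAA, and for an E2F word, TTTNNCGC, on both strands. TTTGAA was found in 18 of 25 matched G2/M genes, against 18.2% of all genes in the table, and the E2F word in 17 of 24 matched G1/S genes, against 8.23% of all genes and 3 of 25 matched G2/M genes. Among matched genes called higher, lower and not called, 12.9%, 14.4% and 13.5% had TTTGAA. The E2F word was in 11.5%, 13.9% and 13.1% of them, and the 12% of G2/M genes with it was near these shares. The word CCAAT, bound by NF-Y, was in 23 of the 25 G2/M promoters, against 39.7% of all genes, and was as frequent in 2 other lists searched, in 16 of 18 cholesterol and 18 of 19 endoplasmic reticulum promoters. It was in 42.6%, 48.9% and 41.5% of matched genes called higher, lower and not called. A pair of windows from each list is shown, with the match in capitals, which reads on the opposite strand in CDC20 and PCNA and lies 178, 29, 44 and 59 bases before the start in CDC20, PLK1, CDC25A and PCNA. These matches too are descriptions only.
CDC20 (chr1:43358787-43358826, plus strand): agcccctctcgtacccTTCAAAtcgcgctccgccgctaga
PLK1 (chr16:23678844-23678883, plus strand): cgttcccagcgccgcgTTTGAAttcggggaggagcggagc
CDC25A (chr3:48188438-48188477, minus strand): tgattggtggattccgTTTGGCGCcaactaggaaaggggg
PCNA (chr20:5126658-5126697, minus strand): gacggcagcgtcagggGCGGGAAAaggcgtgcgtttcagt

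Replication-type histone genes were lower in 10 of 12, with 1 higher and a median of -0.96. HIST1H1E, a linker histone, had 370.0, 334 and 350.3 CPM with BGT226 added, against 812, 805 and 995 CPM with STA9090 alone, a log2 fold change of -1.31 ± 0.16 (adjusted p = 2.4e-06). HIST1H2BC had 599, 579.6 and 618 CPM in the STA9090+BGT226 libraries, against 1144, 1362 and 1712 CPM in the STA9090 libraries, a log2 fold change of -1.23 ± 0.14. Core histone genes are near-identical copies, so the share of reads given to each is uncertain, and 5 of them, HIST1H2AD (log2 fold change -2.41), HIST1H2AB (log2 fold change -1.86), HIST1H3J (log2 fold change -1.66), HIST1H2BB (log2 fold change -1.63) and HIST1H3G (log2 fold change -1.61), were among the 15 largest falls of called protein-coding genes with at least 5 CPM on average and groups that did not overlap. HIST1H2AD and HIST1H3J also overlap AL031777.3 and HIST1H2AM on the same strand, at 19.45 and 0.97 times their own level, so their values are uncertain. The member that was higher, CASP8AP2 (log2 fold change 0.40), is a regulator of histone genes and was singled out after its value was seen.

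Genes of energy metabolism were lower as well. Of 22 genes of hypoxia and glycolysis, 12 were lower and none higher, with a median of -0.51. LDHA, lactate dehydrogenase, had 93.9, 95.98 and 87.9 CPM with BGT226 added, against 169, 196 and 196 CPM with STA9090 alone, a log2 fold change of -1.01 ± 0.099 (adjusted p = 1.3e-07). PKM, pyruvate kinase, had 1216, 1249.9 and 1268 CPM in the STA9090+BGT226 libraries, against 2117, 2368 and 2840.3 CPM in the STA9090 libraries, a log2 fold change of -0.97 ± 0.11, and PGAM1 and TPI1 fell, with log2 fold changes of -0.94 and -0.84. Nuclear-encoded subunits of the respiratory chain were lower in 21 of 26, with none higher and a median of -0.47. COX5A, of complex IV, had 61.4, 54.6 and 59.3 CPM with BGT226 added, against 102, 99.6 and 114 CPM with STA9090 alone, a log2 fold change of -0.84 ± 0.081. None of the 13 mitochondrially encoded messages was called by edgeR, 0 had an unadjusted p under 0.05, and DESeq2 called 0. Their share of counts was 7.99% to 8.63% in the STA9090+BGT226 libraries and 6.39% to 9.73% in the STA9090 libraries. With the filter on low counts removed, 1 was higher and 4 were lower, and with these groups alone in the fit 3 were lower.

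**Figure D2:**
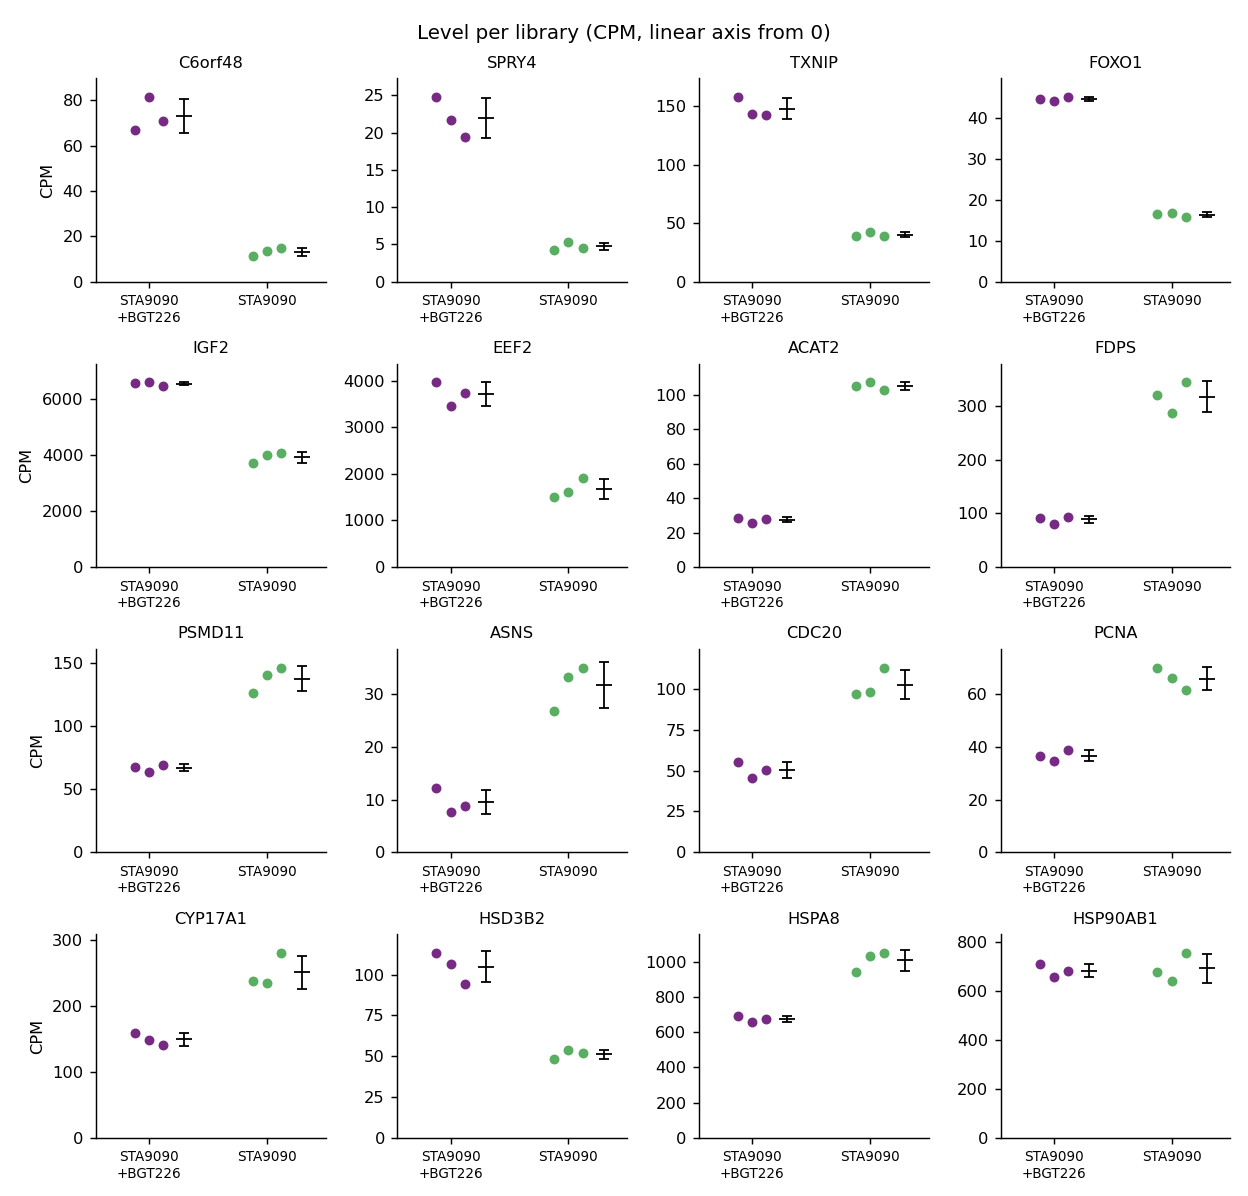
Level of 16 named genes in CPM (linear y axis from 0, a panel for each gene) in the 3 STA9090+BGT226 libraries (purple, left) and the 3 STA9090 libraries (green, right); each dot is a library, and the black mark with whiskers is the mean with its SD. The groups did not overlap in 15 of the panels, and HSP90AB1 was the exception. For C6orf48, SPRY4, TXNIP, ACAT2, FDPS and ASNS, the rule for naming the largest changes required this.

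Steroidogenic genes moved in both directions, with 5 of 23 higher, 11 lower and a median of -0.17. CYP17A1, the 17-hydroxylase and lyase needed for cortisol and androgens, had 159, 148 and 140.0 CPM in the STA9090+BGT226 libraries, against 238, 234 and 279.9 CPM in the STA9090 libraries, a log2 fold change of -0.75 ± 0.08 (adjusted p = 4.4e-07). STAR, which brings cholesterol into mitochondria, had 257, 260.0 and 259 CPM with BGT226 added, against 405, 446 and 474 CPM with STA9090 alone, a log2 fold change of -0.77 ± 0.078. AKR1C3, a 17-ketosteroid reductase, fell, with a log2 fold change of -1.33 ± 0.16. HSD3B2, which converts pregnenolone to progesterone, had 113, 106 and 94.4 CPM in the STA9090+BGT226 libraries, against 47.97, 53.6 and 51.8 CPM in the STA9090 libraries, a log2 fold change of 1.03 ± 0.097 (adjusted p = 7.9e-08). GATA6, an adrenal transcription factor, rose, with a log2 fold change of 0.70 ± 0.088. CYP21A2, the 21-hydroxylase, rose, with a log2 fold change of 0.87, but it has a near-identical pseudogene, so its count is uncertain. MC2R and AGTR1, the receptors for ACTH and angiotensin II, completed the 5 and, named after their values were seen with CYP21A2, rose, with log2 fold changes of 0.50 and 0.28. NR5A1 was not called (adjusted p = 0.43).

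Extracellular matrix and integrin genes were higher in 13 of 26 and lower in 2, with a median of 0.35. HSPG2, the basement membrane proteoglycan perlecan, had 248, 216 and 232 CPM with BGT226 added, against 126, 137 and 121 CPM with STA9090 alone, a log2 fold change of 0.86 ± 0.092 (adjusted p = 4.0e-07). COL6A2 and COL18A1, collagen chains, rose, with log2 fold changes of 0.81 ± 0.082 and 0.70 ± 0.086, the laminin chain LAMB2 with 0.58 ± 0.07, and the integrin ITGA3 with 1.36 ± 0.18. VIM (log2 fold change -0.42) and ITGAV (log2 fold change -0.31), named after their values were seen, fell.

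The largest changes of protein-coding genes also included genes not described above. GPCPD1, a glycerophosphocholine phosphodiesterase, had 17.8, 19.8 and 17.5 CPM in the STA9090+BGT226 libraries, against 4.12, 4.92 and 2.81 CPM in the STA9090 libraries, a log2 fold change of 2.20 ± 0.15 (adjusted p = 1.1e-09). FAXDC2, a member of the fatty acid hydroxylase family, had 13.4, 13.7 and 13.00 CPM with BGT226 added, against 2.47, 2.84 and 2.02 CPM with STA9090 alone, a log2 fold change of 2.44 ± 0.17, and overlaps CNOT8 on the opposite strand. CUX2, a homeobox factor, rose, with a log2 fold change of 2.39 ± 0.24, and TRPV1, a cation channel, with 1.79 ± 0.16. The exons of TRPV1 overlap those of SHPK on the same strand, which also rose (log2 fold change 0.81), so the value of TRPV1 is uncertain. AHNAK, a giant scaffold protein, had 109, 92.9 and 89.01 CPM in the STA9090+BGT226 libraries, against 34.01, 24.4 and 25.6 CPM in the STA9090 libraries, a log2 fold change of 1.79 ± 0.12. ARRDC2, an arrestin-domain relative of TXNIP, LETMD1 and ZNF33B rose, with log2 fold changes of 1.79, 1.73 and 1.67. NPIPA9 (log2 fold change 1.78) and AC138969.1 (log2 fold change 1.73) also rose, but their exons overlap other genes on the same strand and NPIPA9 belongs to a family of near-identical copies, so both are uncertain.

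On the falling side, TFRC, the transferrin receptor for iron uptake, had 257, 229 and 237 CPM in the STA9090+BGT226 libraries, against 773, 783 and 664 CPM in the STA9090 libraries, a log2 fold change of -1.62 ± 0.092 (adjusted p = 1.5e-10). SLC1A3, a glutamate transporter, had 7.34, 9.51 and 8.10 CPM with BGT226 added, against 31.7, 25.5 and 29.95 CPM with STA9090 alone, a log2 fold change of -1.81 ± 0.12. FABP3, a fatty acid binding protein, fell, with a log2 fold change of -1.71 ± 0.15, and MYOT, a sarcomere protein, with -1.66 ± 0.16. TUBA1A, an alpha tubulin with near-identical relatives, had 124, 125 and 124 CPM in the STA9090+BGT226 libraries, against 342, 391 and 459.7 CPM in the STA9090 libraries, a log2 fold change of -1.68 ± 0.11. CCL22, a chemokine and a member of the list of NF-kappa-B targets, had 17.8, 17.6 and 15.2 CPM with BGT226 added, against 45.3, 49.01 and 60.8 CPM with STA9090 alone, a log2 fold change of -1.62 ± 0.11. In each of these genes all libraries with BGT226 were below all libraries without it, which the rule for naming them required.

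The same agent added to untreated cells gave a second measure of its step that shares no library with the first. BGT226 alone against untreated cells called 2028 genes (12.8%) higher and 2485 (15.7%) lower. Of the 3078 genes higher with STA9090 present, 1542 (50.1%) were also higher without it, and these were 76.0% of the genes higher without it. Of the 3300 genes lower with STA9090 present, 2100 (63.6%) were also lower without it, and these were 84.5% of the genes lower without it. The 2 genes higher in the first and lower in the second, named after their values were seen, were TBC1D16 (log2 fold changes 0.21 and -0.25) and NCR3LG1 (log2 fold changes 0.27 and -0.33), and 0 genes were the reverse. Among called genes, 96.0% of those higher and 96.2% of those lower with STA9090 present had the same sign without it. Over all genes tested, 80.4% had the same sign in both steps. Across the 15787 genes, which are not independent replicates, the 2 log2 fold changes had Pearson's r of 0.655 and Spearman's rho of 0.742. Of the 3642 genes called in the same direction in both, 2581 had the larger log2 fold change with STA9090 present, with a median ratio of 1.18. That count rests on genes called in both comparisons, and the size of the difference was tested only gene by gene. Another 1534 genes were called higher and 1200 lower only with STA9090 present, and 0 of these passed the test of the difference between the steps.

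**Figure D3:**
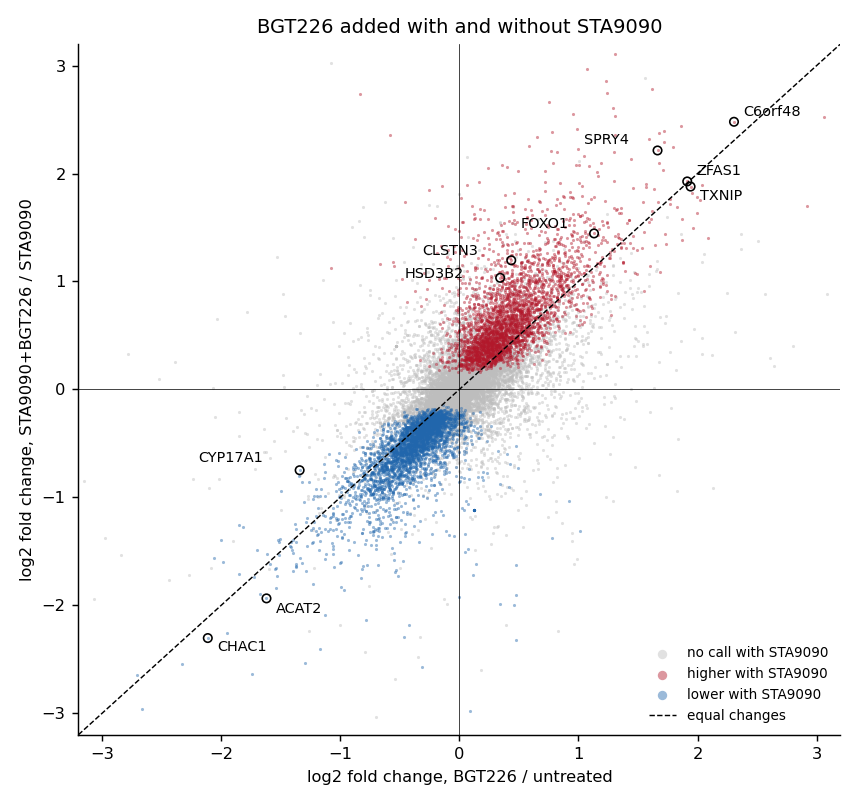
Log2 fold change of STA9090+BGT226 over STA9090 (y axis) against that of BGT226 over untreated (x axis), 1 dot a gene, red and blue for genes called higher and lower in the comparison on the y axis and grey for the rest; the dashed line marks equal changes, and 37 genes beyond 3.2 on either axis are not drawn. Most called genes lie to the upper right or lower left of the origin; CLSTN3, HSD3B2 and CYP17A1 lie above the line.

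Genes named for their change with STA9090 present differed in how near their value without it lay. Without STA9090, C6orf48 had a log2 fold change of 2.31 ± 0.092, TXNIP of 1.94 ± 0.085, FOXO1 of 1.13 ± 0.077 and IGF2 of 0.58 ± 0.091. ACAT2 had a log2 fold change of -1.62 ± 0.082, ASNS of -1.53 ± 0.14, PSMD11 of -0.95 ± 0.085 and CDC20 of -0.83 ± 0.086. Values farther apart were those of GPCPD1, at 2.20 ± 0.15 with STA9090 and 1.30 ± 0.15 without it, TRPV1, at 1.79 ± 0.16 and 0.88 ± 0.16, and HIST1H3J, at -1.66 ± 0.17 and -0.82 ± 0.17, and none of these differences was called. By list, BGT226 alone called 20 of 24 cholesterol genes, 34 of 34 proteasome genes, 17 of 24 ATF4 targets, 20 of 30 G2/M genes and 25 of 30 G1/S genes lower. It called 30 of 42 ribosomal protein and elongation factor genes higher, against 15 when STA9090 was present, and 7 of 20 endoplasmic reticulum genes higher and 1 lower, against 2 and 7. No member of any list was called in the test of the difference between the 2 steps, so these unequal counts are not a shown difference.

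The difference between the steps, tested for every gene in the same fit, was called for 1 gene higher (0.00633%) and 0 genes lower, with 1490 genes at an unadjusted p under 0.05. DESeq2 called 17 higher and 18 lower. The 1 gene was CLSTN3, a synaptic adhesion protein also described in fat cells, at chr12:7129698-7158945 (GRCh38). It had 126, 109 and 108 CPM with STA9090+BGT226 and 46.4, 50.5 and 53.1 CPM with STA9090, and 76.2, 82.05 and 77.9 CPM with BGT226 and 56.4, 60.04 and 58.2 CPM in untreated cells. All libraries with BGT226 were above those without it, and those with both agents were highest. The log2 fold change was 1.20 ± 0.074 with STA9090 and 0.44 ± 0.074 without it, a difference of 0.76 ± 0.10 on the log2 scale (adjusted p = 0.007). The call was lost without BGT226 replicate 1 (difference 0.74, adjusted p = 0.0503) and without BGT226 replicate 3 (difference 0.75, adjusted p = 0.0604). Leaving out other libraries gave up to 3 genes higher, without untreated replicate 2 or STA9090 replicate 1, and up to 3 lower, without untreated replicate 2.

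Other genes with unequal steps were not called in the test of the difference. AHNAK had log2 fold changes of 1.79 with STA9090 and 0.94 without it (adjusted p of the difference 0.15). HSD3B2 had log2 fold changes of 1.03 with STA9090 and 0.34 without it, and CYP17A1 had -0.75 and -1.34 (adjusted p of each difference 0.15). CYP17A1 stood at 104 ± 1.87 CPM in BGT226 cells and 263 ± 20.3 CPM in untreated cells (SD, n = 3 each). AHNAK, HSD3B2 and CYP17A1 were chosen here after their values were seen, from those with the smallest p in the test of the difference.

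PIK75, another PI3K inhibitor, was added to STA9090 at the same stated dose and time, so that the 2 additions can be compared directly as STA9090+BGT226 against STA9090+PIK75. There, 6836 genes (43.3%) were called, of which 3530 genes (22.4%) were higher and 3306 (20.9%) lower with BGT226. Against STA9090 alone, adding PIK75 called 2787 genes (17.7%) higher and 3127 (19.8%) lower; that comparison shares its STA9090 libraries with the addition of BGT226, so its values are only set beside the others.

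Amino acid supply genes separated the 2 additions. ATF4 targets were lower with BGT226 in 18 of 24 and higher in 3, which were SLC38A2, ATF5 and CEBPB (log2 fold changes 0.44, 0.78 and 0.82). ASNS had 12.1, 7.70 and 8.87 CPM with STA9090+BGT226 and 62.9, 61.7 and 61.9 CPM with STA9090+PIK75, a log2 fold change of -2.71 ± 0.13 (adjusted p = 6.0e-12); the STA9090 libraries lay between them. PHGDH had 82.1, 71.4 and 82.7 CPM with STA9090+BGT226 and 296, 319.9 and 274 CPM with STA9090+PIK75 (log2 fold change -1.91 ± 0.11). PYCR1, of proline synthesis, differed, with a log2 fold change of -1.94 ± 0.10. The synthetases were lower in 17 of 20, and their list median against STA9090 was -0.48 for added BGT226 and 0.13 for added PIK75.

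Steroidogenic and matrix genes separated them in the other direction. Of 23 steroidogenic genes, 17 were higher and 2 lower with STA9090+BGT226 than with STA9090+PIK75, with a median log2 fold change of 0.68. The 2 lower genes were CYB5A and NR4A1 (log2 fold changes -0.59 and -0.53). CYP17A1 had 159, 148 and 140.0 CPM with STA9090+BGT226 and 55.6, 51.1 and 53.4 CPM with STA9090+PIK75, a log2 fold change of 1.48 ± 0.084 (adjusted p = 3.6e-11). STAR and HSD3B2 differed, with log2 fold changes of 0.68 ± 0.079 and 1.91 ± 0.10. Of 26 matrix and integrin genes, 21 were higher and 3 lower, namely NID1, ITGA5 and VIM (log2 fold changes -0.74, -0.42 and -0.27). COL18A1 had 47.9, 48.3 and 43.97 CPM with STA9090+BGT226 and 7.77, 9.35 and 7.33 CPM with STA9090+PIK75, a log2 fold change of 2.51 ± 0.099 (adjusted p = 6.5e-13). AHNAK, AEBP1 and FAM107A, a scaffold, a matrix-associated protein and an actin-binding protein, differed, with log2 fold changes of 2.83 ± 0.13, 2.46 ± 0.17 and 2.45 ± 0.10.

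Cell cycle and proteasome genes were lower with BGT226 than with PIK75 added to STA9090, in 22 of 30 G2/M genes, 25 of 30 G1/S genes and 32 of 34 proteasome genes. CDC20 had 55.3, 45.4 and 50.5 CPM with STA9090+BGT226 and 114, 113 and 118 CPM with STA9090+PIK75, a log2 fold change of -1.19 ± 0.087. RRM2 did not follow: it had 65.5, 59.99 and 73.8 CPM with STA9090+BGT226 and 66.7, 57.5 and 73.8 CPM with STA9090+PIK75, and a log2 fold change of 0.01 ± 0.094 (adjusted p = 0.94). Cholesterol genes were lower with BGT226 in 14 of 24 and higher in 4, among them SREBF2 and TM7SF2 (log2 fold changes 0.47 and 0.56). Their medians against STA9090 were -0.86 for added BGT226 and -0.46 for added PIK75. Heat shock chaperones were lower with BGT226 in 18 of 27 and higher in 4, and their medians against STA9090 were -0.29 for added BGT226 and 0.14 for added PIK75. TSTA3, of GDP-fucose synthesis, had a log2 fold change of -2.12 ± 0.12. FAM166B had a log2 fold change of 3.05 ± 0.15 but overlaps RUSC2 on the opposite strand. The largest differences also included CU639417.1, NME1-NME2 and H2BFS, which share sequence with neighbours or copies, and no value is drawn from them.

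**Figure D4:**
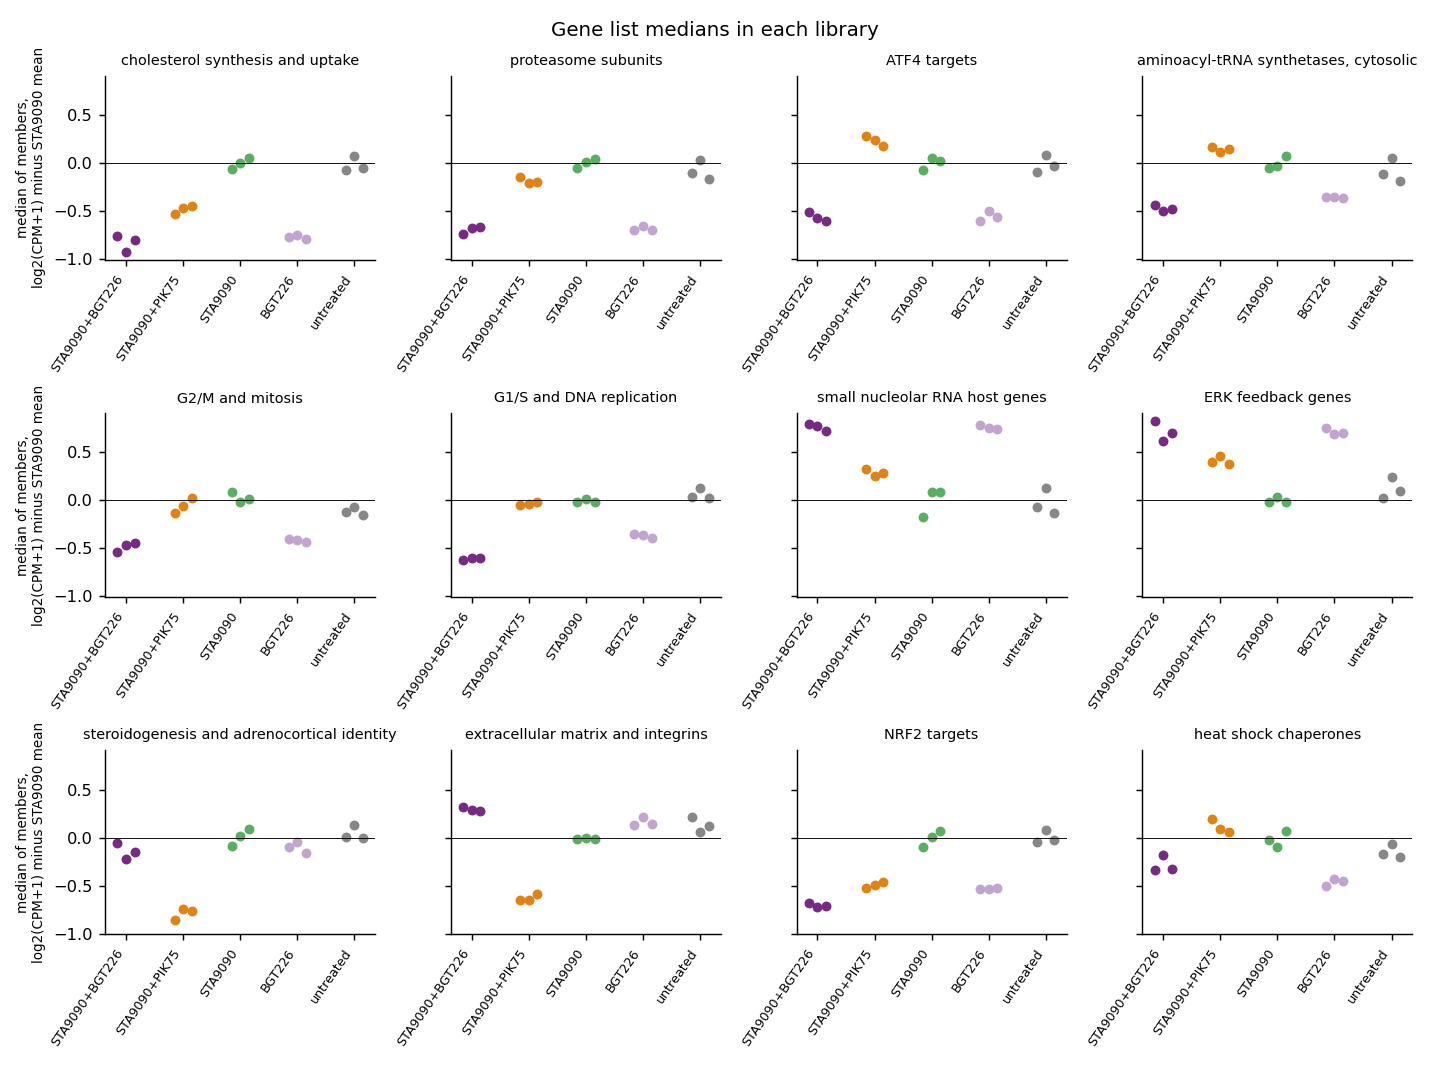
Median over list members of log2(CPM + 1) minus the member's mean in the 3 STA9090 libraries (y axis), in each library of 5 groups (x axis), for 12 gene lists; each dot is a library. ATF4 target and synthetase medians were below 0 in all STA9090+BGT226 libraries and above 0 in all STA9090+PIK75 libraries, while steroidogenic and matrix medians were lowest with STA9090+PIK75.

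Gene type and transcript length moved with the comparison as well. Among 13009 protein-coding genes, 2369 were higher and 3166 lower, with a median of -0.020. Among the 2778 genes of other types, 709 were higher and 134 lower, with a median of 0.34. Sense-intronic transcripts, which lie within introns of other genes, had 47 of 123 higher and 3 lower, and transcribed unprocessed pseudogenes had 107 of 244 higher and 8 lower. Long intergenic RNAs had 145 of 627 higher and 23 lower. Small nuclear RNAs ran the other way, with 24 of 54 lower and none higher, but the 24 held only 14 distinct sets of values, since several annotated copies had identical counts. Of 39 miscellaneous RNAs, 11 were lower and 0 higher. The medians of small nuclear, miscellaneous and small nucleolar RNAs were -1.12, -0.51 and -0.28. For BGT226 without STA9090 they were 0.12, 0.34 and 0.30, so medians below 0 were not seen there. Of 110 small nucleolar RNAs, only 7 (6.36%) were lower and 0 higher, against 20.9% and 19.5% of all genes. The summed levels of small nucleolar and of miscellaneous RNAs overlapped between groups. In both sums STA9090 replicate 1 lay below every STA9090+BGT226 library, so a fall of either class is not shown. Without STA9090, the median of all types other than protein-coding was 0.28. The difference was not tested by type.

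When the protein-coding genes were ordered by their longest annotated transcript and cut into 5 bins, the share called lower was 37.3% in the shortest bin and 13.7% in the longest, and the share called higher was 8.68% in the shortest and 27.8% in the longest. Median log2 fold changes over the bins were -0.23, -0.066, -0.010, 0.050 and 0.085. Without STA9090 they were -0.16, -0.053, -0.025, 0.0052 and 0.039, and for PIK75 added to STA9090 they were -0.0031, 0.032, -0.0026, -0.044 and -0.11. The lists differ in length too, with a median longest transcript of 2737 bases for proteasome genes, 2097 for respiratory chain genes, 5526 for the FOXO list and 5815 for matrix genes. The part of transcript length and of gene type in the list results was not tested.

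**Figure D5:**
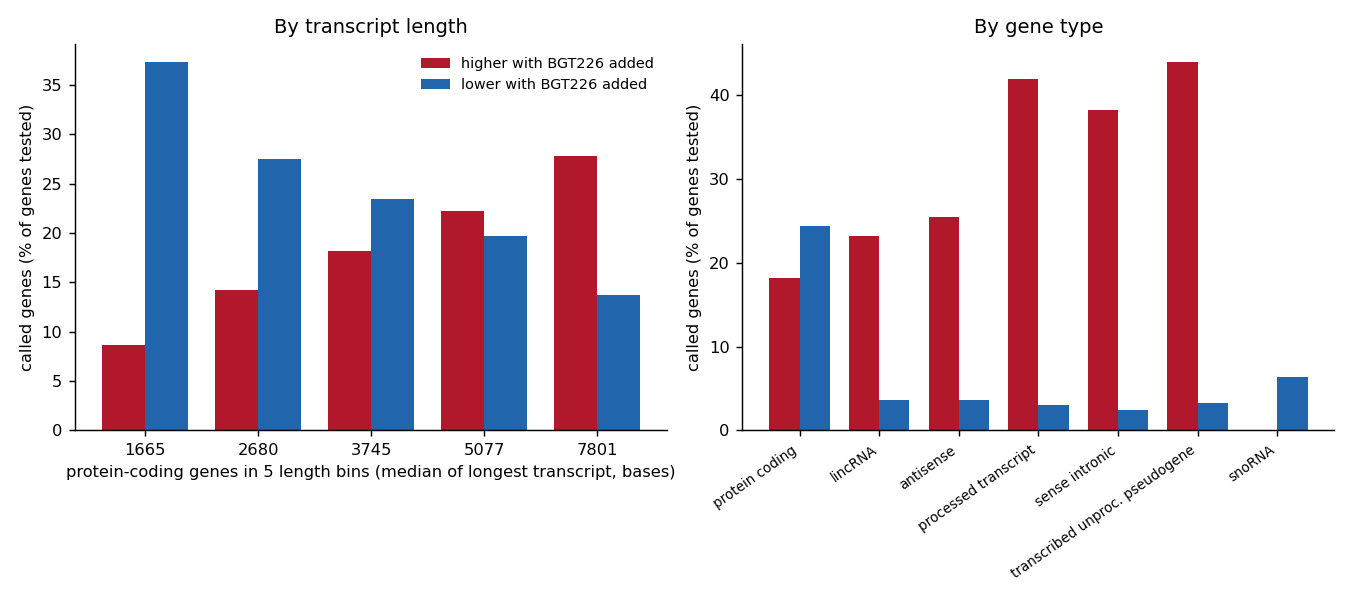
Share of tested genes called higher (red) and lower (blue) in STA9090+BGT226 against STA9090 (y axis, percent), left for protein-coding genes in 5 bins of their longest transcript (x axis, median length in bases) and right for 7 gene types, protein-coding first. The share called lower falls over the bins while the share called higher grows, and the other gene types shown, apart from small nucleolar RNAs, have more genes called higher than lower.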

How the data were processed

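Per the submitters' processing notes, reads were demultiplexed with bcl2fastq 2.20, trimmed with cutadapt 1.18, aligned with STAR 2.7.0f and quantified with RSEM 1.3.1; the sources used here do not give their settings, the annotation release or the strand setting of counting. The authors deposited expected counts per gene, which need not be whole, as a single table of 18 libraries, with totals between 10237000 and 21133800. They were rounded to whole numbers, which moved no library total by more than 0.000381%. Of the gene identifiers, 99.54% were in GENCODE 29 with the version ignored, from which gene types, positions (GRCh38) and overlaps were taken.

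Genes were filtered with filterByExpr (minimum count 10, minimum total 15) and tested with edgeR 4.0.16 (R 4.3.3) by the quasi-likelihood F-test with TMM scaling, all 18 libraries and 6 groups in 1 fit, and Benjamini-Hochberg adjustment over 15787 genes at 0.05. The biological coefficient of variation was 10.6%. Fold changes used a prior count of 0.125, SE was taken as the absolute log2 fold change over the root of F, and CPM values are TMM-scaled. Comparisons were STA9090+BGT226 against STA9090, BGT226 against untreated, the difference between those 2 steps, and STA9090+BGT226 against STA9090+PIK75. Named genes were the 15 largest rises and 15 largest falls among called protein-coding genes with at least 5 CPM on average and groups that did not overlap, up to 5 members of each of 34 lists with the smallest adjusted p, 6 each way in the other comparisons under the same limits without the overlap rule, and 18 fixed genes. A few of the genes these rules name are not reported here. Members and lists were chosen with earlier results of these data known. Alternatives were DESeq2 1.42.0 as test, its size factors, other filters, the 50 most counted genes left out, a fit of the compared groups alone, a replicate block, and each library left out in turn. The procedure was tested on simulated data. Depth sets the precision of low genes; CPM is not corrected for gene length, so levels are not compared between genes. Promoter windows and starts are from RefSeq (GRCh38.p14), with 11199 of the tested genes matched by symbol.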

Additional observations from a re-analysis of the deposited data

Results flagged for a closer look

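CLSTN3 was the 1 gene that edgeR called in the test of the difference between the BGT226 steps with and without STA9090. The difference was 0.76 ± 0.10 on the log2 scale (edgeR quasi-likelihood test, adjusted p = 0.007), with CLSTN3 higher with BGT226 in 3 of 3 libraries in both settings. Over the alternatives its call was lost without BGT226 replicate 1 and without BGT226 replicate 3, as given above. In the same edgeR test 1490 genes had an unadjusted p under 0.05, and DESeq2 called 17 genes higher and 18 lower. A gene that was not called is therefore not shown to respond alike in both settings.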

How the results depend on the processing

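For STA9090+BGT226 against STA9090, the counts of genes higher and lower stayed within 1.5 times those reported under every alternative run. DESeq2 called 2563 higher and 3173 lower, a fit of the compared groups alone 2493 and 3089, and leaving out a library gave 2588 to 2804 higher and 2821 to 3119 lower. Higher genes made up 44.7% to 48.9% of calls, against 48.3% as reported. Counts also held within that margin for BGT226 against untreated (1434 to 1715 higher and 1845 to 2192 lower with a library left out) and for STA9090+BGT226 against STA9090+PIK75 (2780 to 3237 higher and 2878 to 3153 lower). The difference between the BGT226 steps did not hold its count: with no filter on low counts 82 genes were higher and 187 lower, DESeq2 called 17 and 18, and leaving out a library gave 0 to 3 higher and 0 to 3 lower. The cause was not tested.

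The replicate numbers did not pair the libraries of STA9090+BGT226 and STA9090, where same-numbered deviations from the group means correlated at -0.28, 0.013 and -0.076. Between BGT226 and untreated cells these correlations were 0.0075, 0.13 and 0.059, against -0.12 to 0.036 for unlike numbers. Between STA9090+BGT226 and STA9090+PIK75 the same-numbered ones were -0.032, -0.11 and 0.068. With the replicate number as a block, 3017 genes were higher and 3254 lower in STA9090+BGT226 against STA9090, 1971 and 2437 in BGT226 against untreated, 1 and 0 in the difference, and 3466 and 3275 in STA9090+BGT226 against STA9090+PIK75. The IRS2 call was lost under the block (adjusted p = 0.0527).

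Among list medians, that of G1/S genes was -0.72 with a filter of 1 CPM in at least 3 libraries, which removes CCND1. With the 50 most counted genes left out, fewer members remained and the medians were -0.35 for hypoxia and glycolysis and -0.50 for abundant RNA polymerase III transcripts. With a library left out, medians ranged from -0.67 to -0.64 for G1/S, from -0.17 to -0.014 for CDK inhibitors and BCL2 family genes, from -0.22 to -0.17 for ribosome biogenesis, from -0.38 to -0.26 for amino acid transporters, from 0.0072 to 0.099 for circadian genes, from 0.30 to 0.37 for matrix genes, from 0.051 to 0.26 for neuroendocrine markers and from 0.34 to 0.62 for the 3 markers of other cell types. Of 196 named genes, 189 were called and 179 stayed called in every alternative, and 0 reversed. Most of them were named because they were called with a small adjusted p or a large change, so the naming rule largely set these counts. Over all genes tested, 40.4% were called. Of those 6378 genes, 5656 were also called by DESeq2 and 5474 in the fit of the compared groups alone. The annotation copies, the unknown strand setting and low counts limit single genes such as CCND1, EGR2 and the histone genes.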

Other observations

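The counts of the lists not described above are read against the same 19.5% of all genes higher and 20.9% lower. Ribosome biogenesis factors, which build ribosomes in the nucleolus, were lower in 9 of 30 and higher in 0, with a median log2 fold change of -0.17; without STA9090 replicate 1, 14 were lower and 2 higher. Genes of purine and pyrimidine synthesis were lower in 11 of 20, and IMPDH2, of guanine nucleotide synthesis, was the 1 higher (log2 fold change 0.37). Lysosome and autophagy genes split, with 9 of 34 higher and 11 lower, as did interferon response genes, with 6 of 25 higher and 6 lower. Of 17 circadian genes, 4 were higher and 4 lower: RORA, PER2, NR1D1 and DBP had log2 fold changes of 0.93, 0.51, 0.39 and 0.32, and CRY1, NFIL3, AC129492.1 and CLOCK of -0.93, -0.55, -0.41 and -0.24. AC129492.1 is the annotation's name for the identifier of PER1. Without STA9090 replicate 1, the circadian counts were 2 higher and 3 lower.

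Among 17 genes of WNT feedback and the IGF2 locus, 4 were higher and 2 lower. LGR5, a WNT co-receptor and target, had 2.39, 2.26 and 3.43 CPM in the STA9090+BGT226 libraries, against 5.46, 5.38 and 4.74 CPM in the STA9090 libraries, a log2 fold change of -0.93 ± 0.18 (edgeR, adjusted p = 4.2e-04), and TCF7 had a log2 fold change of -0.20. NKD1, RNF43 and APCDD1, feedback inhibitors of WNT, had log2 fold changes of 0.68, 0.51 and 0.35, with IGF2 the other one. Of 13 neuroendocrine markers, CHGB and NCAM1 were higher (0.98 and 0.52 on the log2 scale). The neurofilament genes NEFM and NEFL and UCHL1 were lower (-1.33, -0.98 and -0.89 on the log2 scale). The NEFM call was lost without STA9090 replicate 1 (adjusted p = 0.0907), and the UCHL1 call was lost without STA9090 replicates 2 or 3 or STA9090+BGT226 replicates 2 or 3 (adjusted p between 0.0511 and 0.0936). Of 9 tested NF-kappa-B targets, RELB and TNFAIP3 were higher (0.87 and 0.28 on the log2 scale) and CCL22 was lower. Of 6 abundant RNA polymerase III transcripts, RMRP and RN7SL3 were lower (-0.61 and -0.50 on the log2 scale), and the RN7SL3 call was lost with DESeq2 (adjusted p = 0.0594), in the fit of the compared groups alone (adjusted p = 0.0603) and without any of 5 of the 6 libraries (adjusted p between 0.0644 and 0.265). The genes in these lists were named after their values were seen where they fall outside the rule for naming genes.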
